A study of Homo sapiens with 2 samples.

Results

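The DNA damage checkpoint and repair genes described here were PARP1, SLFN11, CHEK1, CHEK2, ATM, ATR, WEE1, BRCA1 and BRCA2, 9 genes that serve as drug targets or response markers in small-cell lung cancer (SCLC). They were chosen by name, and their probes were those non-control spots of the scanner output whose RefSeq accession belongs to one of the 9 symbols. All 9 genes were found, on 13 of 42402 probes and 46 spots, among 19061 genes with a named probe. The cells were of the SCLC line SBC-3, which grows attached, and received either #1 siHOTAIR, a small interfering RNA against the long noncoding RNA HOTAIR, or the control siGFP, which targets the reporter GFP, a protein that human cells lack. Total RNA of each culture was labelled with the dye Cy3 and read on 1 Agilent SurePrint G3 Human GE 8x60K array, so there was 1 array per condition, both on the same slide, and no P-value between the conditions can be given. The siRNA cannot be told apart from the culture or the array, and precision is limited by there being 1 array a condition.

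Cells answer broken DNA with a kinase cascade. ATM is activated mainly by double-strand breaks and ATR by single-stranded DNA at stalled replication forks. They pass the signal to the kinases CHEK2 and CHEK1, and CHEK1 together with WEE1 holds back the cyclin-dependent kinases so that damaged cells do not enter mitosis. BRCA1 and BRCA2 act in repair by homologous recombination, PARP1 senses strand breaks and marks them with poly(ADP-ribose), and SLFN11 blocks stressed replication forks. SCLC cells divide fast and lean on these checkpoints, and SLFN11 is a known marker of response to PARP inhibitors and DNA-damaging drugs.

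The siRNA defines the only contrast of the arrays, and its strands are shown for that reason, from the 5′ end. Capitals mark bases 2 to 8 of the antisense strand, the seed.
#1 siHOTAIR sense: gaacgggaguacagagagauu
#1 siHOTAIR antisense: uCUCUCUGuacucccguucuu
The target, HOTAIR, was read from 1 spot. Its signal was 108 with #1 siHOTAIR and 244 with siGFP, a log2 ratio of -1.22 with a measurement SD of 0.21.

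All signals below are the processed intensity of the scanner software. Ratios are log2 ratios of #1 siHOTAIR over siGFP after each array was set against its own 75th percentile, so a positive ratio means a higher signal in #1 siHOTAIR-transfected cells. The measurement SD beside a ratio comes from the scatter of repeated spots at the same signal, and it leaves out the difference between cultures. It is the error of a difference of spot means, so it is smaller for a probe with more spots. A probe entered the comparison when 50% or more of its spots passed the software's background test on either array, and a change means a ratio of at least 2-fold, the threshold of the methods. Levels of different probes cannot be set against each other, since each probe binds its target with its own efficiency. The lowest signals that were well above background were 37.3 with #1 siHOTAIR and 28.6 with siGFP.

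The labelled cell type was only partly borne out by its markers. Of 11 neuroendocrine and SCLC markers, NEUROD1, YAP1, DLL3 and ENO2 were well above background on both arrays. CHGA and NCAM1 were so on the #1 siHOTAIR array only, and POU2F3, INSM1, SYP and UCHL1 on neither. Summed over the 11 markers, the signal was 8204 with #1 siHOTAIR and 8525 with siGFP. YAP1 alone made up 6522 and 6750 of these sums, so they say little about the other markers. The log2 ratios were -0.85 for NEUROD1, -0.10 for YAP1, 0.21 for DLL3 and -0.36 for ENO2. Of the epithelial markers, KRT8 and KRT18 were well above background on both arrays, EPCAM on the siGFP array only and CDH1 on neither. The calls of NCAM1 and EPCAM were at the limit of detection. Their mean signals there, 25.5 and 25.1, lay below the lowest spot signals well above background, 37.3 and 28.6. They passed because 50% or more of their spots did. Among markers of other cells, both arrays detected 2 of 6 fibroblast, 3 of 4 immune and 1 of 3 endothelial genes. Both cultures were of 1 cell line, and these immune and endothelial genes had low signals, from 55.4 to 121. The immune list summed to 326 with #1 siHOTAIR and 264 with siGFP, the fibroblast list to 4628 and 4183 and the endothelial list to 148 and 146. These sums compare the arrays within a list, and their part in the ratios below was not tested. In a bulk RNA sample, fewer cells of a type and less RNA per cell cannot be told apart.

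None of the 9 genes changed at least 2-fold. Both arrays detected 12 of the 13 probes, covering every gene except SLFN11. Their ratios ran from -0.44 to 0.78 with a median of -0.07, against 0.01 over all 24117 probes compared, with 4 above and 8 below 0. By 1 probe a gene, the one with the highest mean signal, the median of the 8 genes was -0.12. Across all probes compared, 7.4% changed at least 2-fold. Among 19405 probes measured on both arrays within the range of signal of the 12 probes, 3.27% did, so a count of 0 of 12 is near this background. ATM was the only gene past 1.5-fold, by 1 of its 2 probes, and 18.2% of all probes compared, or 13.1% of those within the range of signal, passed that threshold.

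**Figure D1:**
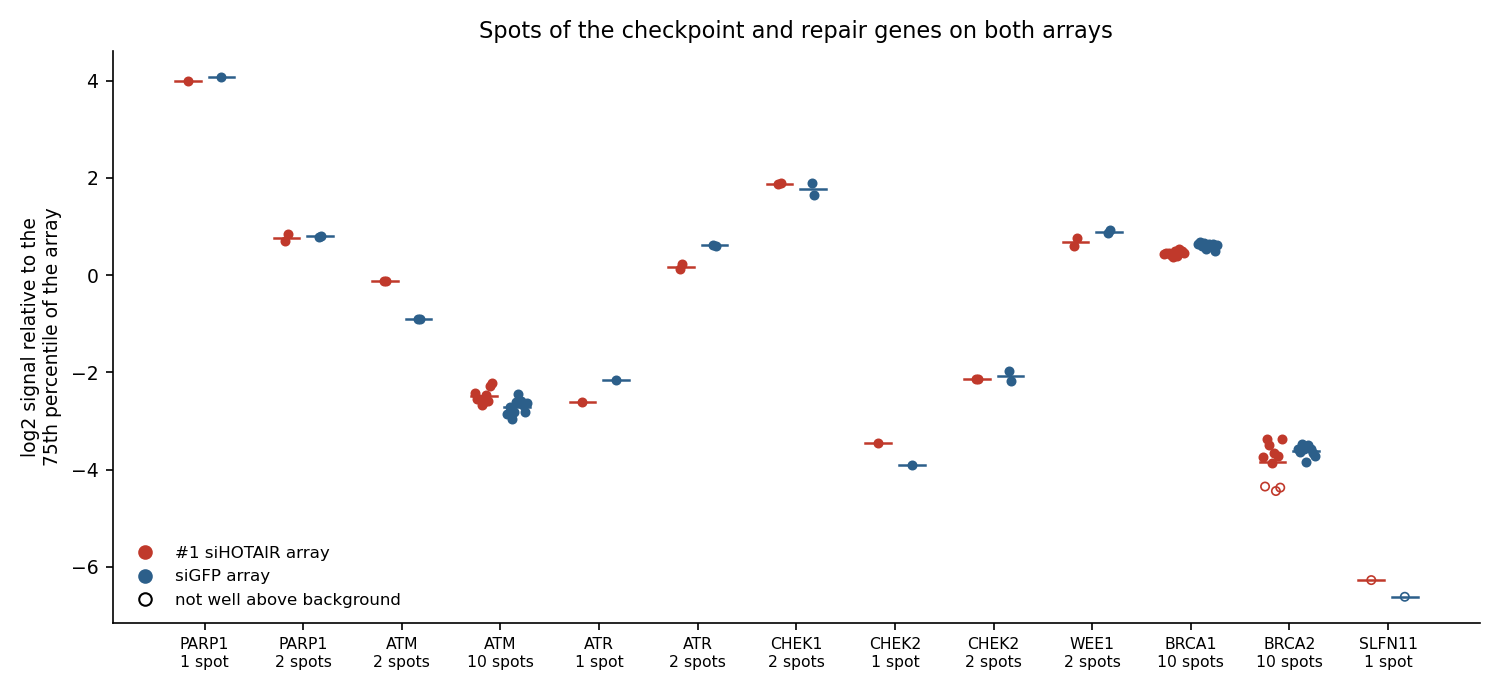
Signal of every spot of the 13 probes on the #1 siHOTAIR array (red) and the siGFP array (blue), as log2 relative to the 75th percentile of the array, with short lines at the means of the spots. Open circles were not well above background; both ATM probes read higher on the #1 siHOTAIR array, both ATR probes read lower, and SLFN11 lay below the limit on both arrays.

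ATM, the apical kinase of the double-strand break response, had the largest ratio of the 9 genes. Its brighter probe (A_33_P3589722) had 2 spots, which read 595 and 598 with #1 siHOTAIR and 336 and 338 with siGFP. The 2 spots agreed closely on each array, and the arrays did not overlap. The log2 ratio was 0.78 with a measurement SD of 0.09, a 1.72-fold difference, and the single spots gave 0.78 and 0.78. Among 4065 probes of the same range with 2 spots, 9.77% had both spots at least 1.5-fold apart in the same direction.

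The dimmer ATM probe (A_23_P35916) had 10 spots, of which the software marked 1 as an outlier on the #1 siHOTAIR array. The other 9 spots had signals from 101 to 140 with a median of 112 on the #1 siHOTAIR array, and the 10 spots on the siGFP array had signals from 80.5 to 115 with a median of 97.2. The arrays overlapped here. The log2 ratio was 0.23 with a measurement SD of 0.08, a 1.17-fold difference, and it was above 0 for 7 of the 9 pairs of spots at the same position, with a range from -0.16 to 0.53. Of 652 probes with 10 spots measured on both arrays, 135 had a ratio at least as high. Both ATM probes therefore read higher with #1 siHOTAIR, but by 1.72-fold and 1.17-fold, and they carry the same RefSeq transcript.

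ATR, the apical kinase of replication stress, was lower by both of its probes. The probe with 2 spots (A_23_P136058) read 711 and 757 with #1 siHOTAIR and 964 and 959 with siGFP. Its log2 ratio of -0.44, with a measurement SD of 0.07, was a 1.35-fold lower signal. The probe with 1 spot (A_33_P3362498) had signals of 107 and 141 and gave -0.44 with a measurement SD of 0.25, so this ratio was less than 2 SD from 0. The sign of both ATM probes and of both ATR probes was the same under every scaling and background setting tried.

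The place of the ATR spots on the array limits this reading. All 3 lay in the low-numbered rows, which held 37.5% of the spots. Without these rows, 907 of 16211 probes compared changed at least 2-fold, against 1784 of 24117 with them. Within 643 probes with 10 spots, the ratio in these rows differed from that of the same probe in the other rows by a median of 0.0008, with quartiles at -0.04 and 0.04. No ATR value remained without these rows, and both spots of the brighter ATM probe lay outside them.

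The ATM promoter is shared head to head with NPAT, a coactivator of histone genes. NPAT had 1 probe with 2 spots and signals of 88.3 and 94.3, and its log2 ratio was -0.14 with a measurement SD of 0.18. The ratio of NPAT was thus within its measurement SD of 0, with the opposite sign to that of ATM. Genes that start head to head with CHEK1, CHEK2, BRCA1 and BRCA2 were read where a probe was matched. LOC118567325 beside CHEK1 and NBR1 beside BRCA1 had no matched probe. NBR2 beside BRCA1 had a ratio of 0.25 with an SD of 0.18 by its probe measured on both arrays. HSCB beside CHEK2 had ratios of 0.09 and -0.12 by 2 probes. ZAR1L beside BRCA2 read 26.6 with #1 siHOTAIR and 49.2 with siGFP, and only the latter was well above background.

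The promoters of ATM and ATR are shown because these kinases had the largest ratios in opposite directions, and that of SLFN11 because its mRNA was not detected. Each is the run of 250 bases before the gene start on the coding strand, from the RefSeq promoter table of GRCh38.p14, which held 8 of the 9 genes. Capitals mark matches, on either strand, to CCAAT (NF-Y) and GGGCGG (SP1).
ATM, chr11:108222817-108223066, plus strand: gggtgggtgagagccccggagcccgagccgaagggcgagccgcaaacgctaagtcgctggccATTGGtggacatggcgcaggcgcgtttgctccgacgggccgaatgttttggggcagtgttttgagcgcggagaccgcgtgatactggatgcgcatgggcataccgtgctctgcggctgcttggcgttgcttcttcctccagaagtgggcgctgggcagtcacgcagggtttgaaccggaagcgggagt
ATR, chr3:142578734-142578983, minus strand: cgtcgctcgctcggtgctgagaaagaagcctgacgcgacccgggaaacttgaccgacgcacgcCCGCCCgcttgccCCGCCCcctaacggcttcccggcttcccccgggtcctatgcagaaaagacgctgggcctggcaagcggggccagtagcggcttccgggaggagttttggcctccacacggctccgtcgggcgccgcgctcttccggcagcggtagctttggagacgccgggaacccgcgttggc
SLFN11, chr17:35373622-35373871, minus strand: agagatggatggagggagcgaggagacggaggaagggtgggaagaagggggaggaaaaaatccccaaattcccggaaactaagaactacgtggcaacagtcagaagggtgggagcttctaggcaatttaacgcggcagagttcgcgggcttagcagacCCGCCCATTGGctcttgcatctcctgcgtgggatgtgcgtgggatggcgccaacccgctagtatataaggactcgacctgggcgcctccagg
At least 1 entry held CCAAT for ATM, BRCA1, CHEK1, CHEK2 and SLFN11, and GGGCGG for ATR, BRCA1, CHEK1, CHEK2, PARP1 and SLFN11. Counted by entry, 8 of the 12 entries of the members held CCAAT and 8 held GGGCGG, and the CHEK1 windows among them overlap. The BRCA1 matches to CCAAT and to GGGCGG lay in different windows. Of all 35116 promoter entries, 32.0% held CCAAT and 42.6% held GGGCGG. The letters TTTGGCGC, TTTCGCGC, TTTCCCGC and TTTGCCGC, forms of the E2F site, were in no entry of the members and in 2.79% of all entries. The ATR window held 32 CpG, the ATM window shown 25 and the SLFN11 window 15, against a median of 11 over all entries. A second ATM window, for a start further downstream, held 20 CpG and a CCAAT match and is not shown. These matches describe the letters of the windows only.

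Among the checkpoint kinases, CHEK1, the effector of ATR, had 1 probe (A_33_P3349536) with 2 spots, which read 2382 and 2409.7 with #1 siHOTAIR and 2325 and 1962 with siGFP. The siGFP spots differed more from each other, and after scaling the arrays overlapped. Its log2 ratio was 0.12 with a measurement SD of 0.06, and the single spots gave -0.01 and 0.25.

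CHEK2, the effector of ATM, had 2 probes that differed. The probe with 2 spots (A_23_P109452) had signals of 148 and 148 against 161 and 139, which overlapped, and its log2 ratio of -0.06 was smaller than its measurement SD of 0.18. The probe with 1 spot (A_33_P3386760), for another RefSeq transcript, had signals of 59.1 and 42.2 and a log2 ratio of 0.44 with a measurement SD of 0.25. The signal of this spot was near the limit of detection, and its ratio was 0.09 with normexp background correction.

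WEE1, the kinase that keeps CDK1 inactive, had 1 probe (A_33_P3290567) with 2 spots. They read 989 and 1101 with #1 siHOTAIR and 1147 and 1191 with siGFP. WEE1 thus had a log2 ratio of -0.21 with a measurement SD of 0.06, a 1.16-fold lower signal. The scatter of its own spots gave 0.08, and both spots gave a ratio below 0, of -0.26 and -0.16. The ratio lay between the quartiles over all probes compared, -0.23 and 0.24.

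The kinases thus differed in sign. ATM and CHEK1 were above 0 and ATR and WEE1 below 0 by each of their probes, while the CHEK2 probes had opposite signs and the CHEK1 spots lay on both sides of 0.

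BRCA1, which acts early in homologous recombination, was read from 1 probe (A_23_P207400) with 10 spots. The signals ran from 835 to 939 with a median of 885 in #1 siHOTAIR-transfected cells and from 892 to 1011 with a median of 970.2 in siGFP-transfected cells. The ranges overlapped, but at each of the 10 positions the #1 siHOTAIR spot was lower on the scaled values. The log2 ratio was -0.16 with a measurement SD of 0.03, a 1.12-fold lower signal, and the single spots ran from -0.24 to -0.01. A ratio at least as low was found in 216 of the 652 probes with 10 spots, so a difference of this size was common on these arrays.

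BRCA2, which acts after BRCA1 in the same pathway, also had 1 probe (A_23_P99452) with 10 spots and was close to the limit of detection. Its signals ran from 29.9 to 63.1 with a median of 48.7 in #1 siHOTAIR-transfected cells, and 7 of 10 of these passed the background test. In siGFP-transfected cells 9 spots that were not outliers ran from 43.6 to 56.3 with a median of 52.5, all well above background. The siGFP range lay inside the #1 siHOTAIR range. The log2 ratio was -0.22 with a measurement SD of 0.08 from probes of similar signal, but the scatter of its own spots gave 0.14, and single spots ran from -0.94 to 0.36 with 4 of 9 above 0.

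The repeated spots of ATM, BRCA1 and BRCA2 overlapped between the arrays on the scaled log2 values, whereas 41.9% of the 652 probes with 10 spots did not overlap. Within the low-numbered rows the mean ratio of the spots was 0.45 for ATM (1 spot), -0.21 for BRCA1 (4 spots) and -0.17 for BRCA2 (4 spots). In the other rows it was 0.20 (8 spots), -0.13 (6 spots) and -0.25 (5 spots), with the same sign for each gene.

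**Figure D2:**
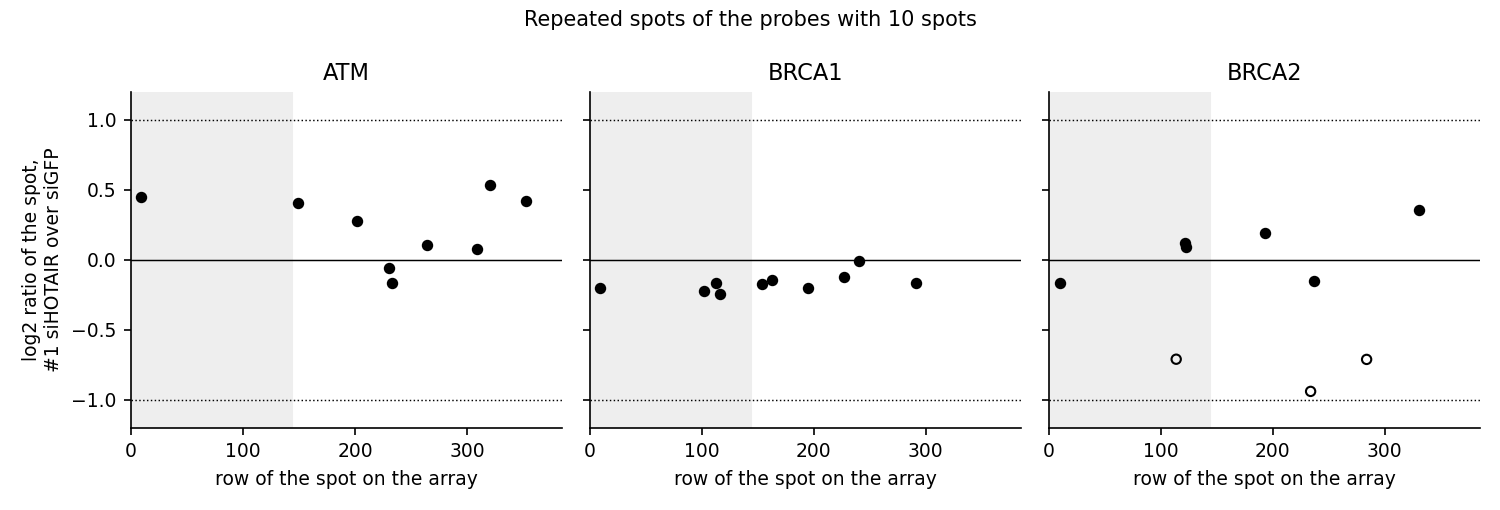
Log2 ratio of #1 siHOTAIR over siGFP for the single spots of the probes with 10 spots, by the row of the spot on the array; the low-numbered rows are shaded and dotted lines mark 2-fold. Open circles were not well above background on the #1 siHOTAIR array. BRCA1 spots lie in a narrow band from -0.24 to -0.01, and BRCA2 spots scatter from -0.94 to 0.36.

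PARP1, the sensor of strand breaks and target of PARP inhibitors, was measured by 2 probes for the same transcript. The brighter one (A_33_P3290338) had 1 spot with signals of 10380.05 and 10646 and a log2 ratio of -0.08, close to its measurement SD of 0.07. The other (A_33_P3236921) had 2 spots, which read 1054 and 1160.1 with #1 siHOTAIR and 1091 and 1094 with siGFP. The #1 siHOTAIR spots lay on either side of the siGFP spots, and the log2 ratio was -0.03 with a measurement SD of 0.06. PARP1 was thus detected in both cultures, and both ratios were less than 2 measurement SD from 0. Scaling to the spike-in RNA turned the sign of both, to 0.01 and 0.07, and the ratio of the probe with 2 spots was above 0 in 5 of 13 settings.

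SLFN11 had 1 probe (A_33_P3315375) with 1 spot and signals of 8.40 with #1 siHOTAIR and 6.42 with siGFP. Both signals were far under the lowest signal well above background, so SLFN11 mRNA was not detectable with this probe in either culture and no fold change is given. Of the other genes of the Schlafen family, SLFN5 was well above background on both arrays with signals of 1806 and 1631 and a log2 ratio of 0.10. SLFN12 had 10 spots with mean signals of 62.6 and 54.9 and a log2 ratio of 0.14. SLFN13 and SLFN14 were well above background on neither array. EZH2, the histone methyltransferase known to silence SLFN11 in SCLC, had a log2 ratio of -0.16 with a measurement SD of 0.06.

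**Figure D3:**
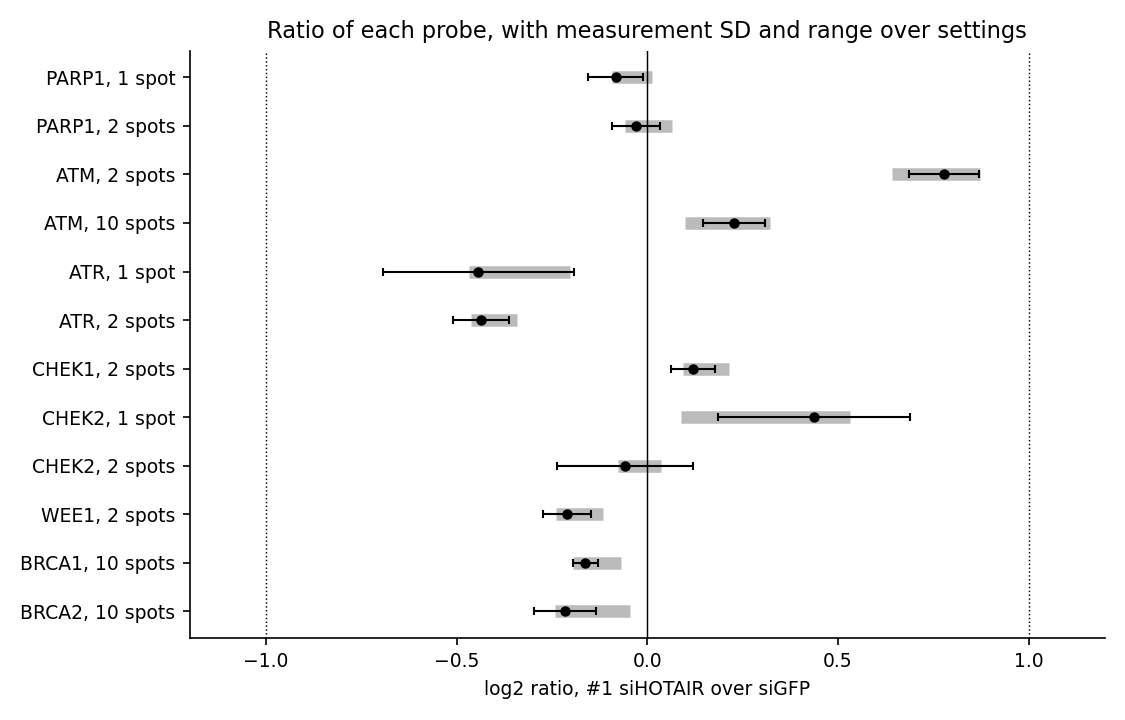
Log2 ratio of #1 siHOTAIR over siGFP for the 12 probes measured on both arrays. Points carry the measurement SD, grey bars span the lowest and highest ratio over all settings, and dotted lines mark 2-fold. ATM lies highest at 0.78, both ATR probes lie at -0.44, and no point or grey bar reaches 2-fold.

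**Figure D4:**
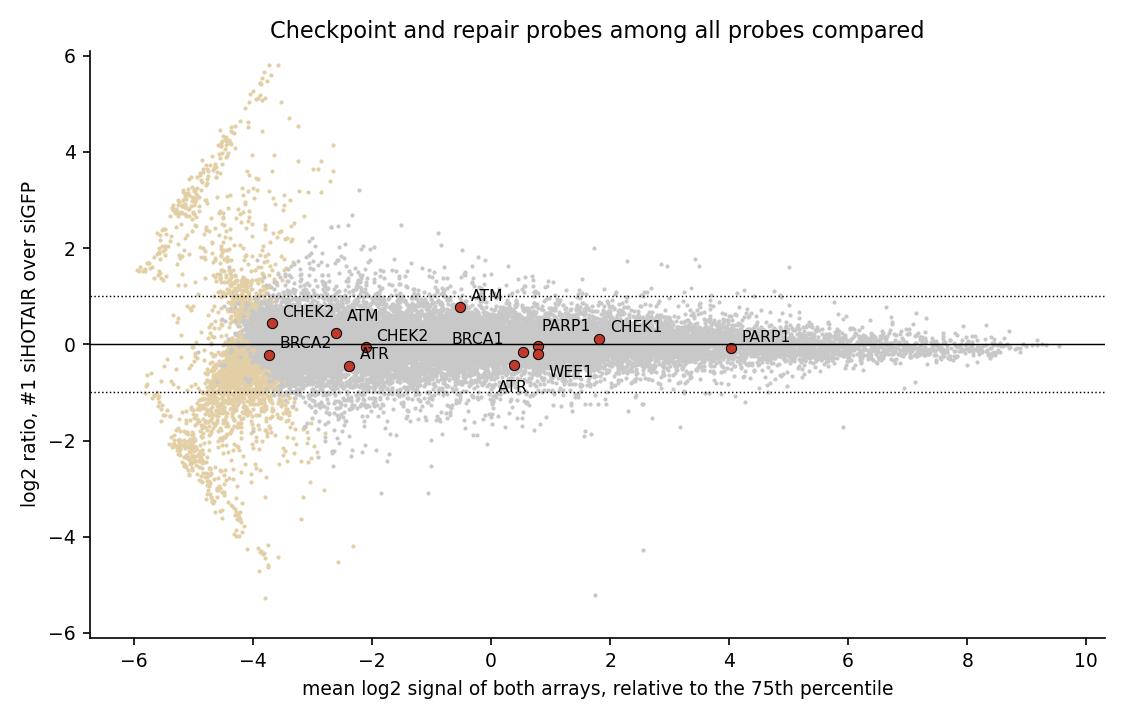
Log2 ratio against the mean log2 signal of both arrays for the 24117 probes compared, in grey where measured on both arrays and in tan where well above background on 1 array only. The 12 probes of the named genes (red) lie within the cloud between the dotted 2-fold lines.

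Other genes of the damage response were taken from 13 lists by role. They held 146 genes beside the 9, of which 141 were compared and 139 were measured on both arrays. OGG1 was at least 2-fold higher and RAD51B at least 2-fold lower, both measured on both arrays. SLFNL1 was counted beside them only with its undetected #1 siHOTAIR signal taken at its own level. With dim signals raised to the lowest signal well above background on their array, here called their bound, the count was 2 of 141. Over all 13014 genes compared, with dim signals at their own level, 2.74% were at least 2-fold higher and 3.41% at least 2-fold lower. The median of the 141 genes was -0.02, against 0.02 over all genes, with 64 ratios above 0. Of the 141, 4 passed 1.5-fold upward and 11 downward, against 1057 and 1133 of all genes.

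In the ATR branch, which detects single-stranded DNA, 0 of 12 genes changed and the median was -0.13. The ratios ran from -0.67 for RPA3, the small subunit of the single-strand binding protein RPA, to 0.24 for RAD9A of the checkpoint clamp. In the ATM branch and break sensing, 0 of 15 genes changed and the median was -0.02, with NBN of the MRN complex at 0.62 and BABAM2 of the BRCA1-A complex at -0.72. The G2/M entry list had 0 of 8 genes changed and a median of 0.01, from -0.38 for CDK1 to 0.20 for PLK1.

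Of the genes of damage-induced arrest and cell death, 0 of 17 genes changed, and 14 of the 17 ratios were below 0. The median was -0.18, against 0.02 over all genes compared, and the highest ratio was 0.22. The lowest was that of BAX, the pro-apoptotic pore former, at -0.61 by 10 spots whose signals did not overlap between the arrays. A second BAX probe, for another RefSeq transcript and with 2 spots, gave 0.09, so the BAX probes disagreed. DDB2, a damage sensor of nucleotide excision repair, had ratios of -0.60 and -0.31 by 2 probes, and CDKN1A, the p21 inhibitor of cyclin-dependent kinases, had -0.44 with a measurement SD of 0.10. The median of this list was below 0 under all 14 settings and ran from -0.26 to -0.09. A steady sign was not particular to this list. The ATR branch median was below 0 under all 14 settings. Those of G2/M entry, end joining, the Schlafen family, targets of SCLC drugs and PI3K-like kinases were above 0 under all 14. For the PI3K-like kinases the median ran from 0.23 to 0.40. The medians of the ATM branch, homologous recombination, Fanconi anaemia, base excision, nucleotide excision and mismatch repair changed sign under at least 1 setting. Scaling to the spike-in RNA gave 0.08 for the ATM branch, 0.07 for homologous recombination and 0.0019 for Fanconi anaemia, and quantile normalization gave -0.02 for base excision. Without the low-numbered rows, nucleotide excision was at -0.08, mismatch repair at 0.0099 and end joining at 0.01.

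In homologous recombination, 1 of 18 genes changed and the median was -0.03. RAD51B, which acts in strand exchange, had 2 spots, which read 53.3 and 67.5 with #1 siHOTAIR and 132 and 150.2 with siGFP, and a log2 ratio of -1.28 with a measurement SD of 0.18. A second RAD51B probe was well above background on neither array. With the signal without background correction the RAD51B ratio was -0.58, short of 2-fold. RAD51D had the highest ratio of the list, 0.37. The Fanconi anaemia list, for repair of interstrand crosslinks, had 0 of 13 changed and a median of -0.09, from -0.62 for FANCC to 0.17 for FANCM.

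In the end joining list 0 of 10 genes changed and the median was 0.15, with PRKDC, the catalytic subunit of DNA-PK, highest at 0.46 and POLL lowest at -0.22. In base excision and single-strand break repair, 1 of 18 genes changed and the median was 0.02. OGG1, the glycosylase that removes oxidized guanine, had signals of 560 and 247 by a probe with 2 spots and a log2 ratio of 1.13 with a measurement SD of 0.09. A second OGG1 probe, with 2 spots, gave 0.87. The first OGG1 ratio was 0.92 with normexp and 0.88 without background correction, short of 2-fold in both. Its partner MUTYH, which removes adenine opposite oxidized guanine, was lowest at -0.60.

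Nucleotide excision had 0 of 11 genes changed and a median of 0.08, from -0.61 for ERCC8 to 0.39 for ERCC2. A second ERCC2 probe gave -0.15, so the ERCC2 probes disagreed. Mismatch repair had 0 of 7 changed and a median of -0.13. PMS2, an endonuclease of this pathway, was highest at 0.55 by 1 spot of its brightest probe. The other PMS2 probes, all well above background, gave -0.32, 0.16 and -0.14, so the PMS2 probes disagreed. The Schlafen family had 3 genes compared. Of these, SLFNL1 read 9.38 and 48.5 by 1 spot, of which only the siGFP signal was well above background. With its #1 siHOTAIR signal set at the lowest signal well above background there, 37.3, it was 1.34-fold lower. This is no firm limit, since a PRKDC spot that read 51.2 on the #1 siHOTAIR array was not well above background.

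Among targets of SCLC drugs, 0 of 8 genes changed and the median was 0.15. TOP2A, the target of etoposide, was highest at 0.70 by 10 spots that did not overlap between the arrays. TOP1, the target of topotecan, gave 0.44 and 0.41 by 2 probes with 2 spots each. TOP2B was at -0.06, and MGMT, which repairs alkylated guanine, was lowest at -0.35. The PI3K-like kinases, the family of ATM and ATR, had 0 of 6 changed and a median of 0.31. This count and median include the members ATM, highest at 0.78, and ATR, lowest at -0.44, whose ratios are given above. All except ATR were above 0, with PRKDC at 0.46, TRRAP at 0.31, MTOR at 0.30 and SMG1 at 0.09 by its brightest probe. The 6 SMG1 probes ran from 0.09 to 0.49. Of the 21 probes with 10 spots in the 13 lists, 7 did not overlap between the arrays, 2 of them higher and 5 lower with #1 siHOTAIR, against 41.9% of all such probes.

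**Figure D5:**
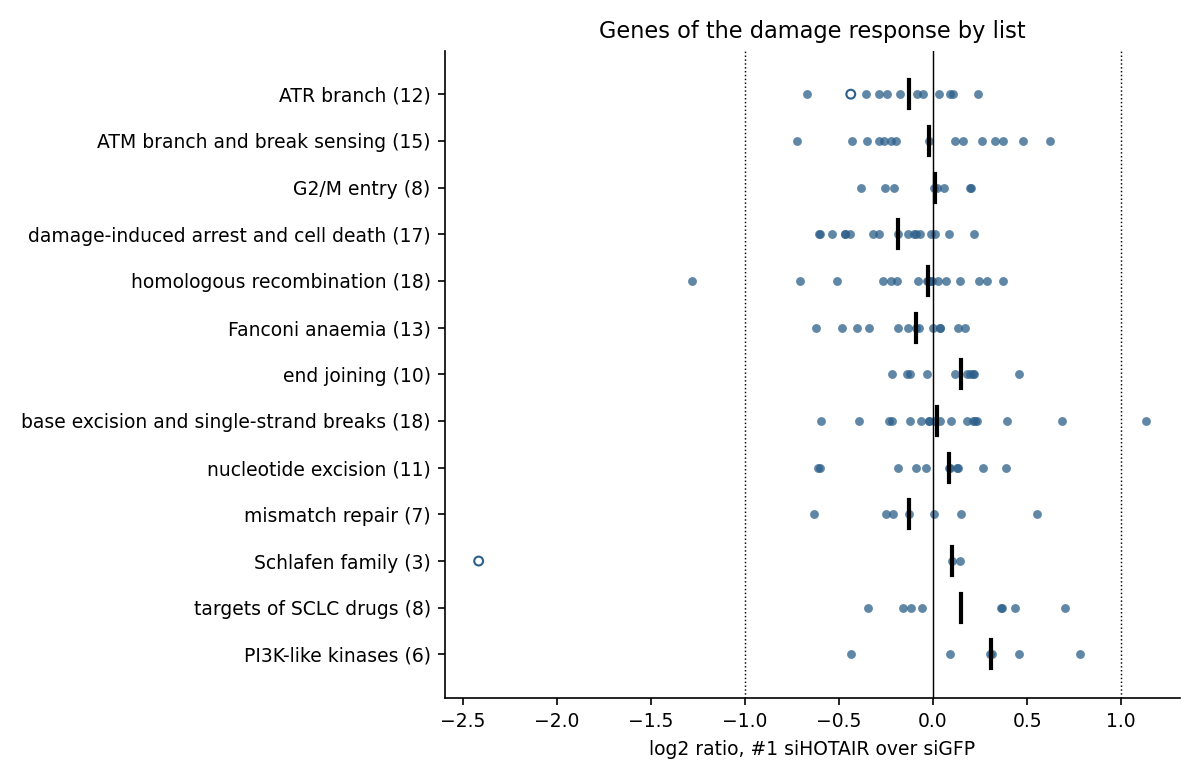
Log2 ratio of #1 siHOTAIR over siGFP for genes of the damage response, 1 point a gene by its brightest probe, with the number of genes compared in parentheses. Black bars are medians, open circles were well above background on 1 array only, and dotted lines mark 2-fold; OGG1 at 1.13 and RAD51B at -1.28 lie outside them, and the open circle far left is SLFNL1, whose #1 siHOTAIR signal was not above background, so its place is no measured fold.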

How the data were processed

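Expression in SBC-3 cells was measured on 2 one-colour arrays, 1 for #1 siHOTAIR and 1 for siGFP. Conditions came from the sample labels. Spots were extracted by the authors with Agilent Feature Extraction 10.10.1.1. The deposited intensity was background-subtracted and detrended across the slide by that software and was not normalized between the arrays. The deposited series value table holds the background-subtracted intensity (largest difference 0) and served as an alternative.

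From there, spots marked as feature outliers (393 and 375) were left out, log2 signals were scaled to the array's 75th percentile (650.3 and 629.9), and spots of a probe were averaged, with Python 3.11.15 and, for normexp, limma 3.58.1. Well above background by the software were 55.5% and 58.3% of the spots. Accessions without versions were matched to the GRCh38.p14 gene table, which named 58.5% of the probes. The measurement SD of a ratio starts, for each array, from the median SD of probes with 10 spots at 6 levels of signal. Its square is divided by the number of spots, and the root of the sum over both arrays is given. The scanner software's own error of the ratio was larger for most member probes, at 0.06 for BRCA1 and 0.14 for WEE1. It was smaller for the ATR probe with 1 spot (0.24) and the CHEK2 probe with 2 spots (0.17). The low-numbered rows are rows 1 to 144 of 384. The calling of changes was run on simulated spots of detected probes, with planted changes well past the 2-fold threshold and spot scatter only. That run could not test calls near 2-fold, calls of dim probes or the difference between cultures.

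The members, lists, motifs and alternatives were chosen with earlier results of these data known, and so were those rows. The text names every member probe, the changed genes and most of the highest and lowest genes of each list, and markers. Other list genes, second probes and promoter neighbours were named after their values were seen. Alternatives were other scalings, background corrections (normexp ran on the median signal of each spot), filters, thresholds, the value table and the omission of those rows. Some genes of the lists are not reported here by name.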

Additional observations from a re-analysis of the deposited data

How the results depend on the processing

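The count of 0 changed probes among the 9 genes was kept under every setting at 2-fold or 3-fold, and at 1.5-fold it was 1. The median of the 8 genes stayed below 0 in all 14 settings and moved most, to -0.028, with scaling to the spike-in RNA. Counts over all probes depended on the processing. Against 1784, they were 414 with normexp, 327 without background correction, 630 with every spot required well above background on both arrays, 3799 with no filter, 907 without the low-numbered rows, 1070 with dim signals at their bound, 4398 at 1.5-fold and 788 at 3-fold. Among the 141 other genes the count of 3 became 0 with normexp and 0 without background correction, 15 at 1.5-fold and 1 at 3-fold. Both background settings compress the ratios of dim probes by construction. Changes of sign under the settings were limited, among the member probes, to both PARP1 probes and the CHEK2 probe with 2 spots. Leaving out spots marked as outliers of the local background, an alternative chosen after seeing the data, gave 0 member probes, 1733 probes in all and 3 of the 141 genes. Without the low-numbered rows, 9 member probes were measured and ATR was not among them. BRCA2, the CHEK2 probe with 1 spot and SLFN11 were limited by signal over background. No paired analysis was possible because each condition had 1 array.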
